A study of Mus musculus with 3 samples.

Results

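The 7 genes described here, Fgd5, Ctnnal1, Tcf15, Gprc5c, Pdzk1ip1, Sult1a1 and Esam, are used to mark or report hematopoietic stem cells (HSCs) in mice. They were taken by name, and their chromatin was compared with that of all 21670 protein-coding genes of the mouse annotation on chromosomes 1 to 19 and X. The cells were long-term HSCs sorted as LSK CD150+CD48−CD34− (LSK cells lack lineage markers and carry Sca-1 and c-Kit) from the bone marrow of wild-type female C57BL/6 mice (C57BL/6J in the study's methods) at 8 weeks of age. They were processed by DOGMA-seq, which reads open chromatin (ATAC), RNA and antibody tags from the same cells, in 1 preparation with 1 library of each kind. No number of pooled mice is given, there is no second condition and no replicate, so every interval below is an exact 95% interval for counting error only and no difference between mice can be judged.

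All 7 genes have been studied as marks of the stem cell compartment. Fgd5 encodes a guanine nucleotide exchange factor for small GTPases, and reporter alleles at Fgd5 and at Ctnnal1, which encodes alpha-catulin, are used to label HSCs. Tcf15 encodes a basic helix-loop-helix transcription factor, Gprc5c an orphan G protein-coupled receptor, Pdzk1ip1 a small membrane protein also called MAP17, Sult1a1 a phenol sulfotransferase, and Esam an adhesion molecule of endothelial cells and HSCs. In ATAC-seq a transposase cuts DNA that is free of nucleosomes, so promoters and enhancers give many short fragments. A single diploid nucleus gives few fragments at any 1 site, and a cell without a fragment is not shown to be closed there.

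The library gave 3757 called cells, of which 3108 (82.7%) had more than 3000 fragments in peaks and entered the counts. These cells had between 3977 and 194395 fragments, with a median of 11457, and all 3108 also had RNA, with a median of 3860.5 UMIs. Promoters of the HSC markers Hlf, Kit and Mecom had a fragment in 40.0%, 27.1% and 22.8% of the cells, whereas Slamf1, Ly6a and Procr, which encode CD150, Sca-1 and the protein C receptor, had one in 3.31%, 1.38% and 6.02%. T cell markers lay between 0.161% and 2.80% and neutrophil and monocyte markers between 0.0322% and 1.64%. The promoters of Cd34 and Cd48, whose products the sort selected against, were at 6.40% and 1.58%. B cell markers lay between 0.901% and 23.8%, erythroid markers between 0.611% and 14.2% and stromal markers between 0.772% and 30.8%. The 5 endothelial markers lay between 1.19% (Cdh5) and 9.52% (Kdr), and the 4 megakaryocyte markers between 12.6% (Gp9) and 24.8% (Itga2b). None of the marker promoters was at 0, and Pax5 (23.8%) and Pdgfra (30.8%), which mark B cells and stromal cells, were above most HSC markers, so the share of cells at a promoter did not sort cell types on its own.

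Each gene was examined over its body and 50 kb either side, in bins of 500 bp. A fragment was counted in a bin that held either of its ends, a bin was open when at least 2% of cells (63 cells) had a fragment there, and adjacent open bins made 1 site. A site within 1000 bp of a protein-coding transcript start of the gene was its promoter, a site near such a start of another gene was that gene's promoter, and any other site was distal. The 7 windows spanned 897 kb and held 171 open bins of 1802, or 9.49%, where 2.94% of the bins in the windows of all protein-coding genes were open. These bins formed 68 sites, of which 8 were promoters of the 7 genes, 11 were promoters of neighbouring genes and 49 were distal.

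**Figure D1:**
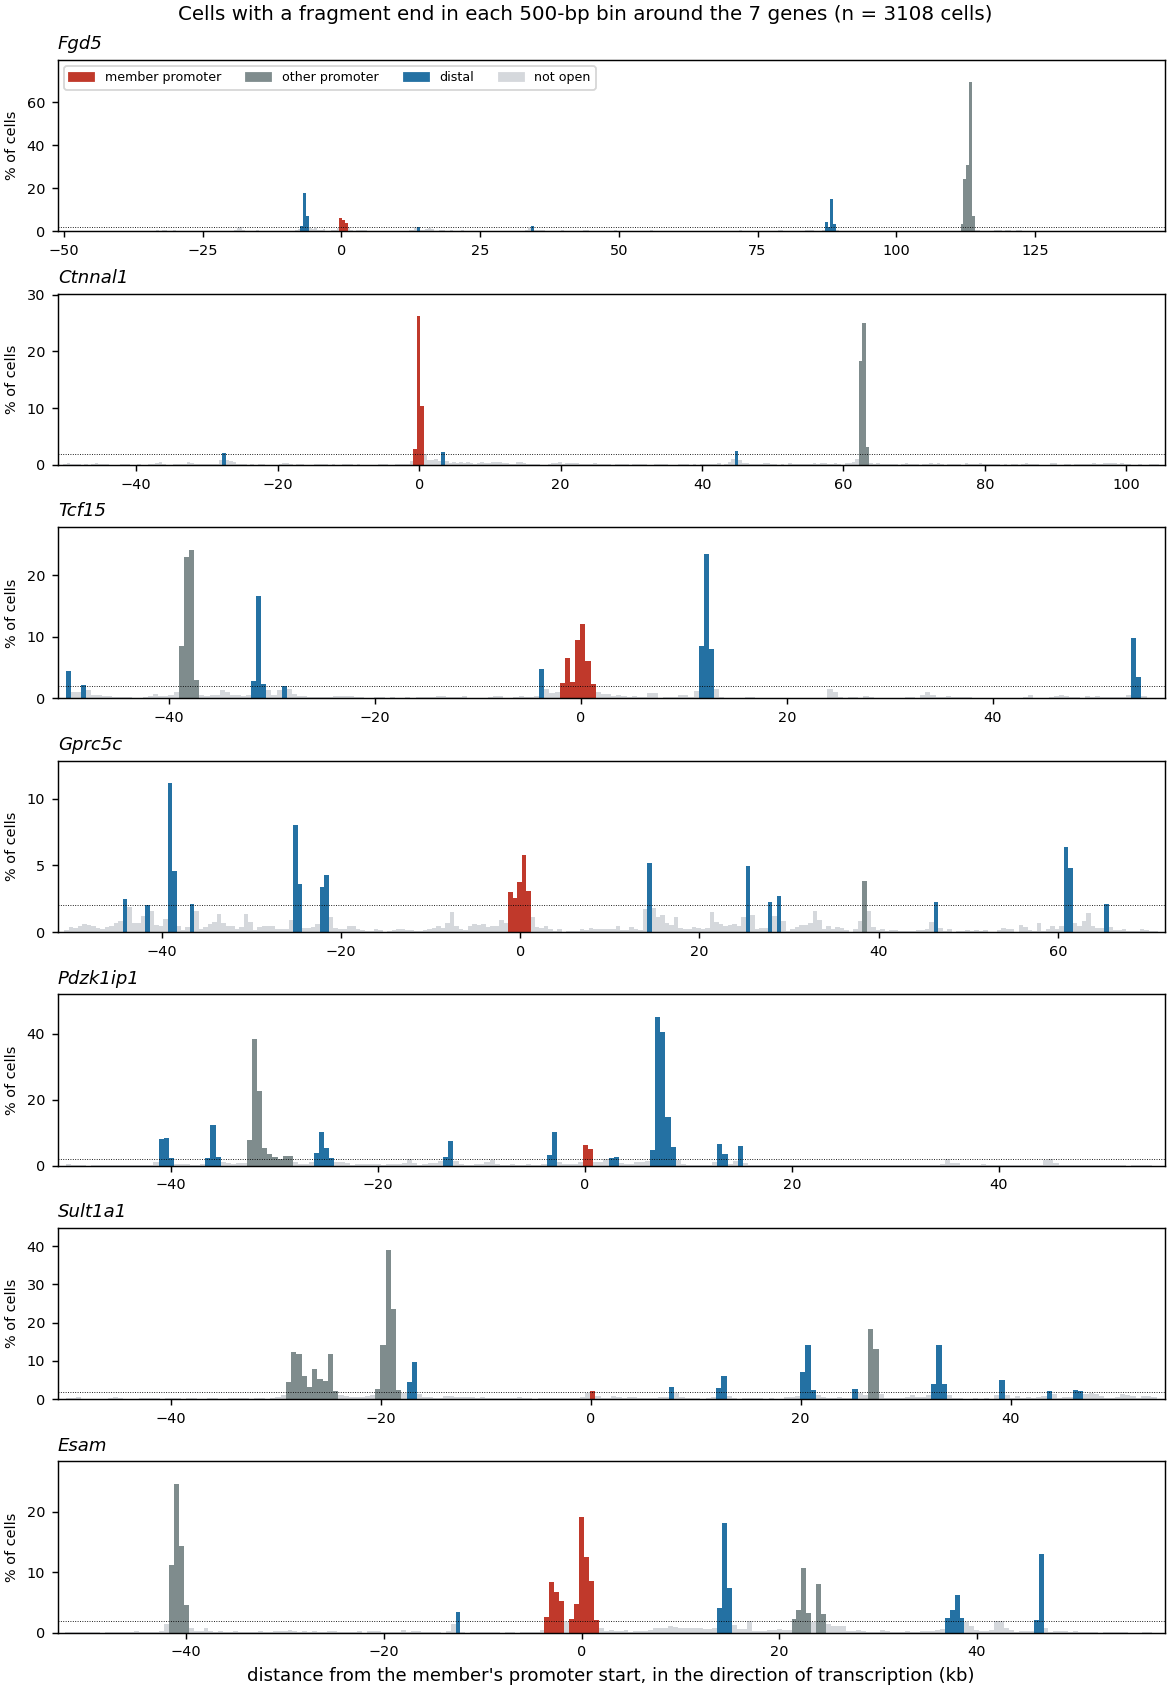
Percent of the 3108 cells with a fragment end in each 500-bp bin (y axis, scaled separately for each gene) by distance in kb from the gene's promoter start in the direction of transcription (x axis), with the 2% limit dotted. Red bins belong to the gene's own promoter, gray bins to another gene's promoter and blue bins to distal sites, and the tallest blue bin, 45.1% near Pdzk1ip1, is higher than any promoter bin of the 7 genes.

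The sequences below are those of the strongest distal site of 5 genes whose distal site was open in more cells than the promoter, each as the 200 bp of the strongest bin with the most fragment ends. They are from the GRCm38 genome (mm10 coordinates) on the forward strand, and all lie outside annotated protein-coding and long noncoding genes. Capitals mark every match, on either strand, to 13 short strings that stand for transcription factor families: GATAAG for GATA factors, GGAAGT for ETS factors, TGTGGT for RUNX factors, CAGATG for E-boxes bound with TAL1, CAGCTG for other E-boxes, TGANTCA for AP-1 factors, GGGCGG for KLF and SP factors at GC boxes, CCACCC for the same factors at CACCC boxes, CCAAT for the NFY complex, TGACAG for MEIS and TGIF factors, TGATTNA for HOX and PBX factors, TGACGT for CREB factors and AGGGGGC for part of the CTCF motif. A match is a run of letters and not a bound site, and neighbouring matches can overlap into 1 run of capitals.
Fgd5 distal site, chr6:91972211-91972410 (+ strand): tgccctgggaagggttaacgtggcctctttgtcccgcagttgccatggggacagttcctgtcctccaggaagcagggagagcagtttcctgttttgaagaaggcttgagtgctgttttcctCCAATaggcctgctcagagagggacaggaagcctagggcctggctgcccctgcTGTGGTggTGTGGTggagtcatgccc
Tcf15 distal site, chr2:152155531-152155730 (+ strand): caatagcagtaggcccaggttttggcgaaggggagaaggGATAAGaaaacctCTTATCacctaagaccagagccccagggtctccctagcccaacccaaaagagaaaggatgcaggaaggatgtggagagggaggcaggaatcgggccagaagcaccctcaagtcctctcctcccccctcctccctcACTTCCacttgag
Gprc5c distal site, chr11:114812731-114812930 (+ strand): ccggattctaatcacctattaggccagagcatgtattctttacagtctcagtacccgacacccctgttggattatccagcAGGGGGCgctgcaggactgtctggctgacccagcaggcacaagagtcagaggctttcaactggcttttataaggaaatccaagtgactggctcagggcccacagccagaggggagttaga
Pdzk1ip1 distal site, chr4:115095791-115095990 (+ strand): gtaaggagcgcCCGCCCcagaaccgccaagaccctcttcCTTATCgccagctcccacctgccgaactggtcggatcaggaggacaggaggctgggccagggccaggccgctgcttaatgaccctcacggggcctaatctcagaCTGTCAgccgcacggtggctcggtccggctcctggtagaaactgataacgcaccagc
Sult1a1 distal site, chr7:126643301-126643500 (+ strand): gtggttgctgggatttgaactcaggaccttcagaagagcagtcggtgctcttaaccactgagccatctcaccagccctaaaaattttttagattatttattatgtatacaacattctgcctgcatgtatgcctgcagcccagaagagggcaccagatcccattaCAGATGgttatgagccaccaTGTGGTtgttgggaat
The Tcf15 sequence held GATAAG on both strands within a few bases of each other and a GGAAGT match further on. The Pdzk1ip1 sequence held 1 GATAAG match beside matches to GGGCGG and TGACAG, and the Fgd5 sequence held a pair of TGTGGT matches and 1 to CCAAT. The Gprc5c sequence held only the AGGGGGC string, and the Sult1a1 sequence held CAGATG and TGTGGT.

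The next sequences are the 200 bp before the start of 3 genes with promoters open in fewer cells than their distal sites, shown because they differ in base composition. Each is written in the direction of transcription, with the same capitals.
Fgd5 promoter, chr6:91978678-91978877 (+ strand): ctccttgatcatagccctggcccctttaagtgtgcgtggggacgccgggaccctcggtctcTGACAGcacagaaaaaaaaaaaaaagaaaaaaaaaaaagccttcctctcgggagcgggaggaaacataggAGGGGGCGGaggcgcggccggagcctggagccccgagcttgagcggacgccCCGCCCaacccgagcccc
Pdzk1ip1 promoter, chr4:115088508-115088707 (+ strand): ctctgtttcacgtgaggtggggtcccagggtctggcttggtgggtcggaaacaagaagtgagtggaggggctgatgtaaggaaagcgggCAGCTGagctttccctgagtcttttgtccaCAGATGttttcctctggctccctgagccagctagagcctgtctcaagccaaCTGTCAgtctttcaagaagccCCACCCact
Sult1a1 promoter, chr7:126676433-126676632 (− strand): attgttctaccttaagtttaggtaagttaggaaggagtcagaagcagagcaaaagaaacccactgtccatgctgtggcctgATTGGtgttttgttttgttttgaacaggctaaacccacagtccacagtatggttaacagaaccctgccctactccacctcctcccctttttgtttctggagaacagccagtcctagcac
The Fgd5 stretch was 61.0% G or C, with matches to the GC box, the CTCF and the MEIS strings, and 1 of the GC box matches overlapped the CTCF match. The Pdzk1ip1 stretch was 55.5% G or C and held both E-box strings, CCACCC and TGACAG. The Sult1a1 stretch was 46.0% G or C and held a single CCAAT match.

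Promoters of the 7 genes ranged widely, from 3.19% to 28.5% of the cells. The promoter share was the percent of cells with a fragment end within 500 bp of the coding transcript start with the most such cells. Ctnnal1 had the highest share, 886 cells or 28.5% (26.9 to 30.1%), followed by Esam with 691 cells or 22.2% (20.8 to 23.7%) and Tcf15 with 502 cells or 16.2% (14.9 to 17.5%). Fgd5 had 252 cells or 8.11% (7.17 to 9.12%), Pdzk1ip1 251 cells or 8.08% (7.14 to 9.09%) and Gprc5c 244 cells or 7.85% (6.93 to 8.85%). Sult1a1 had the lowest share, 99 cells or 3.19% (2.60 to 3.86%). The highest share was 8.95 times the lowest, and the intervals separated Ctnnal1, Esam, Tcf15 and Sult1a1 from each other and from the group of Fgd5, Pdzk1ip1 and Gprc5c, whose intervals overlapped.

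Against all protein-coding genes these shares were ordinary. The median gene had a share of 8.46% and the upper quartile began at 26.0%, and only Ctnnal1, at the 77.5th percentile, lay in that quartile, 1 of 7 where 25% of all genes do by definition. Esam stood at the 70.8th percentile and Tcf15 at the 63.1st. Fgd5 (49.3rd), Pdzk1ip1 (49.2nd), Gprc5c (48.7th) and Sult1a1 (37.8th) were below the median, although each was within counting error of it except Sult1a1. All 7 promoters held an open bin, as did those of 65.4% of genes, with Sult1a1 only just over the limit at 68 cells. For 2 genes the value depended on the start used. At the 5-prime end of the gene record the share of Esam was 8.14%, since the start with the most cells lies downstream of it, and that of Gprc5c was 4.73%. The median of all genes was 6.44% by that start, with Esam at the 53.6th percentile and Gprc5c at the 45.9th.

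**Figure D2:**
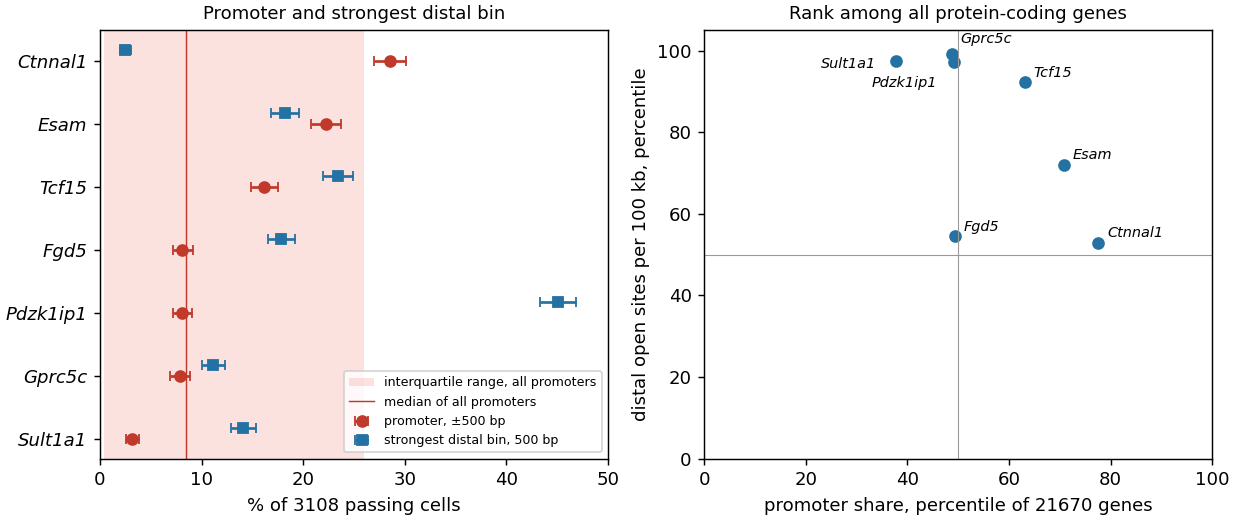
Left, the percent of 3108 cells (x axis) with a fragment at the promoter (red circles) and in the strongest distal bin (blue squares) of each gene, with exact 95% binomial intervals, over the interquartile range and the median of the promoter shares of all genes. Right, the percentile of the promoter share (x axis) against that of distal open sites per 100 kb (y axis) among 21670 genes, where all 7 points lie above the 50th percentile on the y axis and 4 lie below it on the x axis.

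Base composition placed the same promoters differently. CpG-rich promoters are open in most cell types, and the genes were therefore also ranked within 3 equal groups of all genes by CpG content (observed over expected, 250 bp either side of the start). Fgd5, Ctnnal1, Tcf15 and Gprc5c fell in the CpG-rich group, where the median share was 27.7%. There Ctnnal1 stood at the 51.8th percentile, Tcf15 at the 27.1st, Fgd5 at the 10.8th and Gprc5c at the 10.3rd, so Fgd5 and Gprc5c were open in fewer cells than most promoters of like composition. Esam fell in the middle group, with a median of 10.6%, and stood at the 73.6th percentile. Pdzk1ip1 and Sult1a1 fell in the CpG-poor group, where the median share was 0.129%, and stood at the 94.8th and 88.3rd percentiles. The CpG ratio itself was 0.0327 for Sult1a1, 0.201 for Pdzk1ip1, 0.485 for Esam and between 0.825 and 1.04 for the other 4.

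Distal sites set several of the genes further apart from the rest of the genome than their promoters did. Gprc5c had 13 distal sites, Pdzk1ip1 and Sult1a1 9 each, Tcf15 7, Fgd5 and Esam 4 each and Ctnnal1 3, where the median gene had 3. Per 100 kb of window, Gprc5c had 10.7 (99.2nd percentile), Sult1a1 8.69 (97.4th), Pdzk1ip1 8.56 (97.2nd) and Tcf15 6.63 (92.3rd). Those 4 of 7 genes were in the top 10% of all genes by this measure, with the other 3 at 3.63 for Esam (72.0th), 2.03 for Fgd5 (54.5th) and 1.94 for Ctnnal1 (52.9th). With windows of 100 kb either side, 2 of the 7 were in the top 10%. Every one of the 7 had at least 1 distal site, as did 76.1% of all genes.

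Of the 49 distal sites, 27 were intergenic, 15 lay in introns, 4 in exons and 3 within a gene record but outside its principal transcript, and 7 of the 49 lay in the record of the gene whose window was searched. A distal site can belong to any gene nearby, and no measurement here tied a site to a target. Starts of transcripts annotated without a coding sequence lay within 1000 bp of 6 of the distal sites, among them the site in Fgd5 intron 14 and the one in Nrgn. The strongest bin was over the median of all 32122 distal sites of the genome (4.09% of cells) at 29 of the 49 and in the top 10% (over 11.4%) at 10.

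In 5 of the 7 genes the strongest distal bin had a fragment in more cells than the strongest promoter bin. This was so for 35.2% of all protein-coding genes and for 28.2% of those with an open promoter. The 5 were Fgd5, Tcf15, Gprc5c, Pdzk1ip1 and Sult1a1, and the same 5 were found under each of the 9 other settings of bins, windows, cells and fragments. Ctnnal1 was opposite, with 815 cells in its promoter bin and 77 in its strongest distal bin. Esam lay between, with 593 and 565 cells, and intervals that overlapped (17.7 to 20.5% and 16.8 to 19.6%). The 593 cells were at its downstream start, and its other promoter site had 259 cells. Each setting used the strongest bin near any coding start of the gene, and none was limited to 1 start.

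Pdzk1ip1 had the most open of these distal sites. It lay 7.04 kb downstream of the Pdzk1ip1 start, past the end of the gene, at chr4:115095001-115097500, and its strongest bin had a fragment in 1402 cells, 45.1% (43.3 to 46.9%), against 195 cells in the promoter bin. That bin ranked 89 among the 32122 distal sites, and the whole 2500-bp site had fragments in 1899 cells (61.1%), of which 1052 had 2 or more. The same bin lies 39.3 kb downstream of the start of Tal1, the neighbouring gene, which encodes a basic helix-loop-helix factor required for blood formation and whose known blood enhancers include elements downstream of Pdzk1ip1. The Tal1 promoter, 32.0 kb upstream of the Pdzk1ip1 start, was open in 1194 cells (38.4%) in its strongest bin. The next distal sites were 36.0 kb upstream (381 cells, 12.3%) and 2.96 kb upstream (319 cells, 10.3%), and another covered Tal1 exon 3 (317 cells, 10.2%). In all, 60.8% of the fragments of this window had an end in a distal site, at the 98.4th percentile of genes.

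Tcf15 had its strongest distal site 12.2 kb downstream of the start, beyond the short gene, at chr2:152155001-152156500, with 727 cells in the strongest bin (23.4%, 21.9 to 24.9%) against 376 in the promoter bin. It was the site with the paired GATAAG matches above and ranked 670 among all distal sites. A site 31.3 kb upstream, between Tcf15 and Srxn1, had 515 cells (16.6%), and one 53.7 kb downstream had 305 (9.81%). The promoter of Srxn1, which encodes sulfiredoxin, was open in 751 cells (24.2%). The site at the upstream edge of the window lay in exon 2 of Scrt2, and its strongest bin, with 174 cells, was just outside the 50-kb limit.

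Fgd5 had 2 distal sites well above its promoter and 2 near the limit. The strongest was intergenic, 6.63 kb upstream of the start, at chr6:91971501-91973000, with 554 cells (17.8%, 16.5 to 19.2%). The other lay 88.4 kb downstream in intron 14 of Fgd5, at chr6:92066001-92068000, with 469 cells (15.1%, 13.8 to 16.4%). Both intervals were above that of the promoter bin (193 cells, 6.21%, 5.39 to 7.12%), and those of the 2 distal sites did not overlap each other. The remaining sites, both in intron 2, had 74 cells (2.38%) and 63 cells (2.03%), the latter at the limit. The tallest peak of the window was the promoter of Nr2c2, a nuclear receptor gene beyond the end of Fgd5, with 2153 cells (69.3%).

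Gprc5c had many sites of low share. The strongest was 39.1 kb upstream, at chr11:114812501-114813500, with 347 cells (11.2%, 10.1 to 12.3%), followed by 1 at 25.1 kb upstream with 250 cells (8.04%) and 1 at 60.9 kb downstream with 198 cells (6.37%). The promoter bin had 180 cells (5.79%, 5.00 to 6.67%). Of the remaining 10 distal sites, 1 lay in intron 2 of Gprc5c with 161 cells (5.18%), and the lowest had 63 cells. The promoter of Cd300a, a myeloid immunoreceptor gene, was open in 118 cells (3.80%), fewer than at the Gprc5c promoter.

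Sult1a1 lay in a gene-dense window with 17 coding starts, and its 9 distal sites were spread over the neighbours. The strongest bin was 33.2 kb downstream, intergenic, at chr7:126642501-126644000, with 439 cells (14.1%, 12.9 to 15.4%), and the next was in intron 1 of Sgf29, 20.7 kb downstream, with 436 cells (14.0%, 12.8 to 15.3%), so their order was within counting error. Another, 16.8 kb upstream in Slx1b, had 305 cells (9.81%). None lay in Sult1a1 itself. Among the neighbouring promoters, the one shared by Bola2 and Slx1b was open in 1209 cells (38.9%), that of Sgf29, which encodes a subunit of histone acetyltransferase complexes, in 566 (18.2%), and that of Coro1a, which encodes a coronin of blood cells, in 382 (12.3%).

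Esam had 2 promoter sites of its own. The one with the more cells, 593 (19.1%), was at the downstream start, and the other, centered 3.00 kb upstream of that, had 259 cells (8.33%, 7.39 to 9.36%). Its strongest distal bin was 14.5 kb downstream over exon 4 of Nrgn, which encodes neurogranin, at chr9:37544001-37545500, with 565 cells. Next were sites 46.5 kb downstream (402 cells, 12.9%) and 38.0 kb downstream (192 cells, 6.18%), both in the Siae record, and 12.5 kb upstream in intron 2 of Msantd2 (104 cells, 3.35%). The promoters of Msantd2, Nrgn and Siae were open in 765, 332 and 248 cells.

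Ctnnal1 was the one gene of the 7 with a high promoter and almost nothing around it. Its promoter at chr4:56864501-56866000 had 815 cells in the strongest bin (26.2%, 24.7 to 27.8%). The 3 distal sites, in introns 12 and 1 of Ctnnal1 and in intron 10 of Tmem245, had 77 cells (2.48%), 72 cells (2.32%) and 67 cells (2.16%), with intervals that overlapped. The strongest of them ranked 26528 of 32122.

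Of 52785 fragments with an end in the 7 windows, 41980 (79.5%, 79.2 to 79.9%) had an end in an open bin, and the median of all genes was 70.4%. By gene the percent was 87.2 for Pdzk1ip1 (91.7th percentile), 82.7 for Esam, 82.6 for Sult1a1, 81.0 for Tcf15, 77.7 for Fgd5, 68.7 for Ctnnal1 (47.2nd) and 60.7 for Gprc5c (36.3rd). The upper quartile of all genes began at 80.9%, so 4 of the 7 genes were in it and 2 were below the median. Open bins at promoters of neighbouring genes count here too: they held 18746 fragments, against 17902 at the distal sites and 5484 at the promoters of the 7 genes, and the Nr2c2 promoter alone held 5577 of the 7675 in open bins around Fgd5.

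Fragment length, which the choice of sites did not use, also differed between sites. Fragments under 150 bp, too short to span a nucleosome, made up 46.1% of all fragments of the cells. They made up 56.2% (55.5 to 56.9%) at the 49 distal sites together and 52.7% at all distal sites of the genome. The Pdzk1ip1 site gave 3828 of those fragments, and the other 48 sites together held 53.3% (52.5 to 54.1%), a value added after the data were seen. By site the order was the other way, with a median of 48.7% over the 49 sites and 50.5% over all distal sites. The percent was 70.5 (66.3 to 74.4) at the Esam site 46.5 kb downstream, 66.8 (65.3 to 68.3) at the Pdzk1ip1 site, 63.8 (60.5 to 67.0) at the Fgd5 site upstream of the start, 59.7 (55.9 to 63.4) at that in intron 14 and 60.8 (58.0 to 63.5) at the Tcf15 site. Of the 13 distal sites open in over 10% of cells, 10 had an interval wholly above the average of all fragments. This was so for 77% of all such distal sites. An interval wholly below the average was found at 0 of the 13 and at 311 of all 4138 such sites. The 10 above the average also included a Tcf15 site of 515 cells with 63.1 (59.3 to 66.8) and a Sult1a1 site of 436 cells with 63.0 (59.1 to 66.7). They also included the strongest Sult1a1 site with 56.4 (52.3 to 60.4) and the strongest Esam site with 50.5 (47.0 to 54.1). At the rest of the 13 the interval held the average. These were the strongest Gprc5c site with 47.6 (42.7 to 52.5) and the Pdzk1ip1 site 2.96 kb upstream with 48.4 (43.3 to 53.6). The last was the site in Tal1 exon 3 near Pdzk1ip1 with 42.4 (38.4 to 46.5). The Sult1a1 site 16.8 kb upstream, open in 9.81% of cells, had 46.1 (41.2 to 51.1). At sites of few cells the percent ran from 20.3 (11.6 to 31.7) at 1 Tcf15 site of 63 cells to 67.4 (56.7 to 77.0) at 1 Sult1a1 site of 82 cells. At the promoters the percent was 62.5 (59.8 to 65.1) for Ctnnal1 and 50.1 (47.4 to 52.8) at the downstream Esam start, both above the average of all fragments. It was 41.6 (38.6 to 44.7) for Tcf15, 41.3 (37.3 to 45.4) at the upstream Esam site, 33.8 (29.1 to 38.6) for Fgd5 and 28.4 (24.2 to 32.9) for Gprc5c, with intervals below that average. The intervals of Pdzk1ip1, 45.1 (39.4 to 50.9), and Sult1a1, 35.2 (24.2 to 47.5), held it. All promoter sites of the genome together were at 56.8%, with a median by site of 50.8%.

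**Figure D3:**
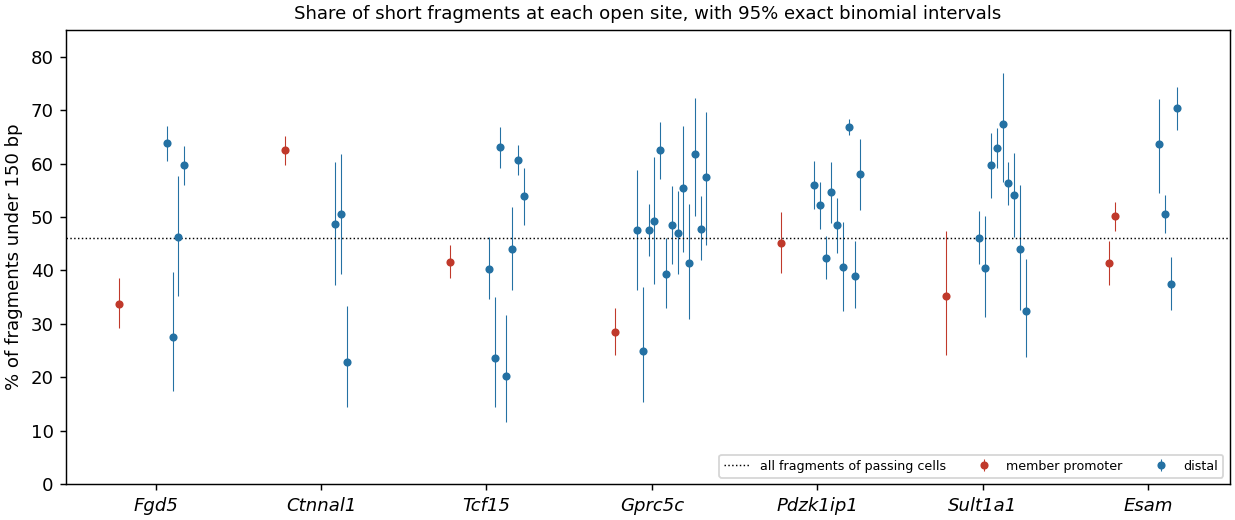
Percent of fragments under 150 bp (y axis) at each promoter (red) and distal (blue) open site of the 7 genes, in order of distance from the start within a gene, with exact 95% binomial intervals and the average over all fragments dotted. The Ctnnal1 (62.5%) and downstream Esam (50.1%) promoters lie above the line, and the Fgd5 (33.8%) and Gprc5c (28.4%) promoters are among those below it.

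Barcodes that were not called as cells held 3530001 fragments, and served as a measure of DNA outside called cells. Relative to the fragments of each kind of barcode, these barcodes had fewer at the sites than the cells did, with a ratio of 0.587 for the 49 distal sites together against 0.611 for all distal sites of the genome. For 25 of the 49 the interval of the ratio was wholly below 1, against 36.8% of all distal sites, and for 5 the ratio itself was above 1, against 7.54%. These sites were called for being open in the cells, and an interval narrows with the fragments of a site, so the counts are a description with no test. It was 0.559 (0.484 to 0.641) at the Pdzk1ip1 site, 0.684 (0.542 to 0.853) at the Tcf15 site and 0.843 (0.656 to 1.07) at the Fgd5 site upstream of the start, whose interval held 1. At the promoters of the 7 genes it ran from 0.522 to 0.757.

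Of the 13 strings, 7 were in a higher percent of the strongest bins of the 49 distal sites than of all distal sites and 6 in a lower percent, as a description with no test. GATAAG was in 11 of 49 (22.4%) against 16.7% of all distal sites, GGAAGT in 24 (49.0%) against 39.4%, TGTGGT in 18 (36.7%) against 39.8%, CAGATG in 18 (36.7%) against 34.6% and CAGCTG in 17 (34.7%) against 28.9%. TGANTCA was in 11 (22.4%) against 17.0%, GGGCGG in 11 (22.4%) against 17.2%, CCACCC in 21 (42.9%) against 39.7% and CCAAT in 18 (36.7%) against 44.6%. TGACAG was in 13 (26.5%) against 32.0%, AGGGGGC in 7 (14.3%) against 15.1%, TGATTNA in 4 (8.16%) against 19.1% and TGACGT in 1 (2.04%) against 6.84%. The 8 promoter sites had GGGCGG in 6 (75%), against 72.3% of all promoter sites.

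Across cells, most HSCs had a fragment at one or more of the genes. A promoter fragment was found for at least 1 of the 7 genes in 1949 cells (62.7%) and for 3 or more in 174 (5.60%). A fragment at the strongest distal site was found for at least 1 in 2646 cells (85.1%) and for 3 or more in 575 (18.5%), and 93.5% of cells had a promoter or distal fragment at 1 gene or more. The Pdzk1ip1 site alone had fragments in 1899 cells. Distal sites were counted over their whole length, 2500 bp at Pdzk1ip1, and promoters over 500 bp either side of the start. The widths differ, so the distal and promoter counts are not directly comparable, and no other genes were counted in this way. These counts move with depth. After each cell was thinned to 3000 fragments, 26.9% of cells had a promoter fragment and 46.0% a distal fragment at 1 gene or more.

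The shares were also read in 3 groups of cells by depth, 1036 cells each, with a median of 8119 fragments in the shallowest and 14574.5 in the deepest. The Ctnnal1 promoter rose from 20.4% (18.0 to 23.0%) of the shallowest group to 37.4% (34.4 to 40.4%) of the deepest, and the Pdzk1ip1 distal site from 50.9% (47.8 to 54.0%) to 71.6% (68.8 to 74.4%). Thinned to 3000 fragments, the Ctnnal1 promoter was at 9.75%, 9.36% and 9.65% in the 3 groups, and the Pdzk1ip1 site at 29.0%, 25.3% and 25.3%. The order of the thinned promoter shares over all cells was that of the full ones but for Pdzk1ip1 (2.83%), which moved ahead of Fgd5 (2.32%) with overlapping intervals (2.28 to 3.48% and 1.82 to 2.91%).

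**Figure D4:**
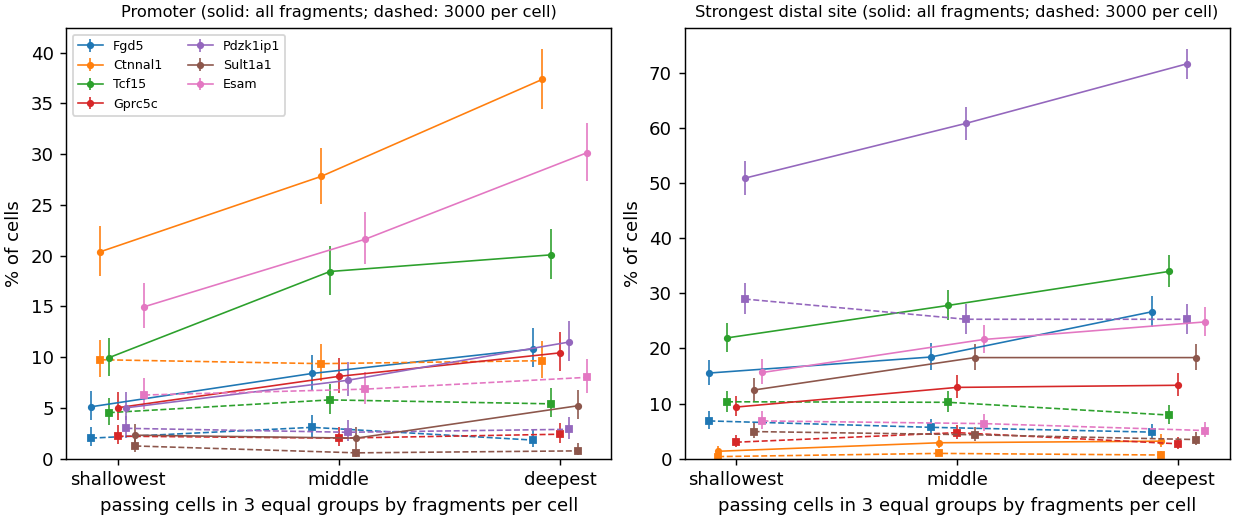
Percent of cells (y axis) with a fragment at the promoter (left) and at the strongest distal site (right) in 3 equal groups of the 3108 cells by fragments per cell (x axis), for all fragments (solid lines, circles) and 3000 fragments per cell (dashed lines, squares), with exact 95% binomial intervals. All fragments give higher shares in the deepest group than in the shallowest for each gene, and the dashed lines are closer to level, such as 9.75%, 9.36% and 9.65% for the Ctnnal1 promoter.

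No pair of the genes had open sites in the same cells in a number whose interval excluded that given by depth. For the 21 pairs of genes, the number of cells with both promoters was divided by the number expected from the single shares within each group of depth. The ratio had a median of 1.02 (range, 0.702 to 1.64), and in 0 of 21 pairs did its interval lie wholly above or below 1. For the strongest distal sites the median was 1.02 (range, 0.870 to 1.46), again with 0 of 21, and after thinning it was 0.898 with 0 of 21. A gene's own promoter and its own strongest distal site gave ratios from 0.946 for Esam to 1.23 for Ctnnal1, none with an interval apart from 1, where the count of cells with both ran from 17 for Sult1a1 to 158 for Pdzk1ip1. The precision differed between pairs: for the strongest distal sites of Tcf15 and Pdzk1ip1, both open in 558 cells, the interval was 0.945 to 1.12, and for the promoters of Gprc5c and Sult1a1, both open in 14 cells, it was 0.897 to 2.75.

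The promoter share of other genes used to describe HSCs ran from 1.38% to 54.8%, against 3.19% to 28.5% for the 7 genes. Among 15 such genes, 5 were in the upper quartile of promoter share, against 25% of all genes, and 5 were below the median, with a list median of 21.0%. The highest were Msi2, an RNA-binding regulator (54.8%), Hlf, a PAR bZIP factor (40.0%), and Mllt3, a chromatin reader (37.7%), and the lowest were Ly6a (1.38%), Slamf1 (3.31%) and Tek, the angiopoietin receptor (3.86%). By distal sites per 100 kb, 3 of the 15 were in the top 10%, and their median percentile was 73.6. The median percentile of the 7 genes was 92.3, but it was 72.0 with windows of 25 kb either side and 81.5 to 90.9 under the other 8 alternatives, for which the 15 genes were not recomputed.

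Relatives of the 7 genes gave a view of each family. Among 26 relatives, 2 were in the upper quartile of promoter share and 12 at or below the median, with Sult2b1 exactly at it. The list median of 8.78% was close to that of all genes. The alpha-catenin gene Ctnna3 (57.8%), Fgd6 (36.7%) and Ctnna1 (23.9%) were highest. Sult1d1 and Sult1e1, both sulfotransferases like Sult1a1, had 0 of 3108 cells, which allows a share of up to 0.0965% by a limit of 3 counts and has an exact 95% upper bound of 0.119%, and Gprc5d had 3 cells (0.0965%). Sult1a1 at 3.19% lay above Sult1d1 and Sult1e1 and below Sult2b1 (8.46%), and Gprc5c at 7.85% lay above Gprc5d and below Gprc5a (15.0%) and Gprc5b (20.3%). Fgd5 at 8.11% was below all 5 of its listed relatives, which ran from 8.78% (7.81 to 9.83%) for Fgd2, with an interval that overlapped that of Fgd5, to 36.7% for Fgd6. By distal sites 1 of the 26 was in the top 10%, with a median percentile of 50.1.

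Over the percentiles of 4 measures (promoter share, distal sites per 100 kb, percent of fragments in open bins, strongest distal bin), the protein-coding genes nearest to each of the 7 were found by Euclidean distance in percentile points. For Pdzk1ip1 these were Adgrg3 (2.29) and Trpv2 (3.13), for Tcf15 Srp68 (2.81) and Cdc37 (3.05), and for Esam Gpat4 (2.29) and Lrrc57 (3.18). For Sult1a1 they were Nos3 (3.09) and 6820408C15Rik (4.38), for Gprc5c Hoxc9 (4.59) and Fam131c (4.71), for Fgd5 Irs1 (5.32) and Grtp1 (6.34), and for Ctnnal1 Kif15 (6.01) and Pum3 (6.35). None of the 14 had a window that overlapped that of its match, and none was another of the 7.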

How the data were processed

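The 7 genes, the gene lists and the measures were chosen with earlier results of these data known. Per the file headers, the authors made the files with Cell Ranger ARC 2.0.2 on its mm10 reference, a pipeline that collapses duplicate read pairs into fragments and calls cells. The deposited values are unnormalized counts, namely the position of every unique fragment with its count of read pairs, and counts of fragments and UMIs per barcode. The fragments of the 3108 called cells with more than 3000 fragments in peaks were used, 37191101 in all of 42000180 deposited. No fragment ended beyond its GRCm38 chromosome (21 compared), so GENCODE vM21 genes and the GRCm38 RefSeq genome were used with the deposited coordinates. Each gene's share was set among 21670 protein-coding genes. A percentile is the percent of genes below plus those tied counted at midpoint. Depth per cell limits every share, and intervals (exact binomial for shares, exact Poisson for counts) cover counting error only. With 1 ATAC library no test between conditions was possible and no p-value is given. Doublets were kept, and an alternative left out the deepest 5% of cells. No blacklist was applied, and the matrix of antibody tags and RNA per gene were not used here. Columns of unknown samples numbered 0. Named genes were the 7 members, coding genes with an open promoter inside a window (1 such promoter is not reported here), the 3 highest and 3 lowest of each list by promoter share, the promoter and 3 strongest distal sites of each member, and its 2 nearest genes over 4 percentiles; markers, relatives and further sites were named beyond that rule after their values were seen. Counting steps were tested on simulated data. Python 3.11.15, numpy 2.4.6, scipy 1.17.1, pandas 2.3.3 and matplotlib 3.10.9 were used.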

Additional observations from a re-analysis of the deposited data

How the results depend on the processing

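No paired analysis was possible because the series has 1 ATAC library and no second group. Of the 7 genes, the same 5 had a distal bin above the promoter bin under all 9 alternatives of bins, windows, cells and fragments. The number of genes in the upper quartile of promoter share was 1 under 7 of the 8 alternatives and 2 with 1000 bp either side of the start, where Esam joined Ctnnal1. The number below the median of promoter share, 4 in the main setting, was less stable. It was 3 with 250 bp either side or after thinning, 2 with 1000 bp either side or the 5-prime end of the gene record, and 4 otherwise. The promoter share of a single gene stayed within its main interval for 7 of 7 genes without the deepest 5% of cells, and fell outside it for 7 of 7 after thinning to 3000 fragments. The 49 distal sites became 28 with an open limit of 5% of cells and 28 with windows of 25 kb either side, by construction fewer, and stayed between 38 and 70 otherwise. The genes in the top 10% of distal sites per 100 kb numbered 2 with windows of 100 kb either side, and 3 or 4 otherwise. The percent of window fragments in open bins was 85.1 with a limit of 1%, 69.5 with a limit of 5%, 79.1 with the grid shifted by 250 bp and 76.8 for fragments with at least 2 read pairs, each above the median of all genes under the same setting. With a limit of 100 bp in place of 150 bp, short fragments made up 44.8% at the distal sites, against 42.4% at all distal sites. Without the Pdzk1ip1 site, an alternative chosen after seeing the data, the percent under 150 bp was 53.3. Sites near the 2% limit rest on as few as 63 cells, which limits the precision of their shares.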
